A study of Mus musculus with 37 samples.

Results

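The comparison set 1 implanted tumour clone, bulk_2838c3, against the 6 other clones labelled T cell high: bulk_6421c2, bulk_6499c4, bulk_6555c3, bulk_6556c4, bulk_6620c1 and bulk_7160c2. Its members were the tumours numbered 2 and 3 of clone bulk_2838c3 and the tumours numbered 2 of the other clones. They were chosen by their labels and as libraries without marked liver and heart RNA. These are 2 and 6 libraries, or 8 of the 37 in the series. The tumour numbered 1 of bulk_2838c3 is given beside them only, because it holds liver and heart RNA: Alb, the albumin gene of the liver, was at 6884 CPM there and at 10.7 and 4.59 CPM in tumours 2 and 3. It also holds Y-linked transcripts that tumours 2 and 3 lack, so whether it comes from the same line of cells cannot be told, and its values are those of the library labelled tumour 1.

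Each library was made from total RNA of a whole tumour, so it holds RNA of the tumour cells and of every host cell in the mass. All tumours grew under the skin of C57BL/6 mice for 3 weeks after pancreatic tumour cells were implanted, and all were left untreated. No group carried a further allele or agent in the labels. The series set tumours labelled T cell low against tumours labelled T cell high, but the sources used here do not say how the phenotype was scored, or what sex and age the hosts were. A clone is 1 line of implanted cells, so bulk_2838c3 stands for 1 line and its 2 tumours are not independent lines. Low and intermediate clones, 9 libraries in all, are quoted as context. Total counts of the 8 libraries ran from 30.24 to 44.17 M reads, with 35.93 M for tumour 2 and 43.8 M for tumour 3 of bulk_2838c3. Levels are given as counts scaled to library size (CPM, counts per M reads) with TMM scaling, and differences as log2 of bulk_2838c3 over the mean of the other high clones.

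Carcinomas of the pancreas arise from an epithelium whose identity is set by transcription factors such as Pdx1 and Foxa2. Clones of such tumours can keep different parts of this programme, and can switch on factors that belong to other organs, such as the kidney regulators Pax2 and Sall1. Tumours also differ in the host cells they hold, of which cytotoxic T cells are marked by Cd8a and neutrophils are drawn by the chemokine Cxcl1.

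Both tumours of bulk_2838c3 held the kidney and developmental factor genes Sall1, Pax2 and Tfap2a at levels far above the other high clones. They held less Pdx1, Ly6a, Maoa and Slc9a2 than any of them. No gene passed the test on clone sums, in which 1 clone was compared with 6. With edgeR's quasi-likelihood test and Benjamini-Hochberg adjustment, 0 of 18847 genes were called (0%), the lowest adjusted p being 0.124. Before adjustment, 803 genes (4.26%) were under 0.05, 481 of them higher and 322 lower. DESeq2 on the same sums called 34 genes (0.18%), 4 higher and 30 lower. A fit of the 7 high clones alone called 8 genes (0.0436%) and limma voom 3 (0.0166%). A fit that took the tumours as replicates, 2 against 6, called 37 genes of 17486 (0.212%), 21 higher and 16 lower. Its p-values are too small, because both tumours of bulk_2838c3 come from 1 line. On simulated counts for 18847 genes, the test on clone sums found 3 of 50 genes changed by 1 on the log2 scale and 16 of 50 changed by 2. It found 39 of 50 changed by 4 and 45 of 50 changed by 6, with 3 false calls. Small differences were thus mostly not detectable with this design. Changes were set only in genes of at least 1 CPM on average, with 1 mean for all clones. Genes nearly absent from the other high clones, such as Sall1, were therefore not simulated. The values below are therefore descriptions, and calls by the other fits are named as such.

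Both tumours lay above all 6 other high libraries for 1531 genes (8.12%) and below all 6 for 1535 genes (8.14%). Of these, 317 and 328 also lay outside all 15 other libraries, low and intermediate ones included. Across 18847 genes, the log2 levels of the 2 tumours correlated at 0.979 with each other. Tumour 2 correlated at 0.954 to 0.968 with the other high libraries and tumour 3 at 0.954 to 0.977, a range that reaches almost to the value within the clone. The other high libraries correlated at 0.958 to 0.987 among themselves. Tumour 1 of bulk_2838c3 stood apart, at 0.939 and 0.929 with tumours 2 and 3 and 0.918 to 0.926 with the other high libraries.

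The 3 genes used to describe the high clones did not set bulk_2838c3 apart. Clu, a secreted chaperone and complement regulator, was at 13528 and 12606 CPM in tumours 2 and 3, and the 6 other libraries ran from 9708 CPM through a median of 13172 CPM to 16191 CPM. The log2 difference was -0.03 (SE 0.52). Cd8a was at 0.852 and 6.07 CPM, against 0.116 to 4.21 CPM with a median of 1.14 CPM, so tumour 3 held the highest value of the 8 libraries and tumour 2 lay inside the range. Cd8a differed 7.12-fold between the 2 tumours of the clone, and the log2 difference from the other clones of 1.24 (SE 1.42) was smaller than its error. Cxcl1 was at 1.21 and 10.8 CPM, both inside the range of 1.19 to 19.1 CPM, an 8.91-fold difference between the tumours and a log2 difference of -0.09 (SE 1.20) from the other clones.

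The 12 genes named for higher levels included 2 factors of kidney development. Sall1, a zinc finger factor of the developing kidney, and Pax2, a paired-box factor of the kidney and urinary tract, were close to absent from the other high clones. The 250 bases before a RefSeq start of each gene (GRCm38.p6) are shown because both factors were at high levels together in bulk_2838c3 while the other high clones held almost no reads of either. For Sall1 the window is chr8:89044163-89044412 on the minus strand and ends at the gene's GENCODE start. For Pax2 it is chr19:44755502-44755751 on the plus strand and ends 293 bases short of that start. Each is read 5′ to 3′, and capitals mark GCCNNNGGC, the palindromic motif known for the factor AP-2, searched once since it reads the same on both strands.
Sall1: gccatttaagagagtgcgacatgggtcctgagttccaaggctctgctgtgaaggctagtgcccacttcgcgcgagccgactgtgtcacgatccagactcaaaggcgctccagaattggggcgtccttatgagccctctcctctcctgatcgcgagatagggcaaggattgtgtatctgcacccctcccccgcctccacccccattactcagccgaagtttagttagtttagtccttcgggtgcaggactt
Pax2: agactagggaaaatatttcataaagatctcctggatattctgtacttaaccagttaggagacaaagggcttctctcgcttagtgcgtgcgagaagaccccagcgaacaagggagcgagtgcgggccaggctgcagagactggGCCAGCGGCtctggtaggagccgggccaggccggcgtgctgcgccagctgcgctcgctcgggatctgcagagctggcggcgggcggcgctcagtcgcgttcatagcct
The Pax2 window holds 1 match and the Sall1 window none, and 13.73% of 32851 such windows in the RefSeq table hold the motif. That table lists 3 starts for each gene, and the windows of the others are not shown. The Pax2 start used was not found in a GENCODE transcript. Whether AP-2 acts on either gene was not tested.

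Sall1 (chromosome 8, 89027235 to 89044162) was at 38.6 CPM in tumour 2 and 36.9 CPM in tumour 3 of bulk_2838c3. In the other high clones it ran from 0 through a median of 0.0502 CPM to 0.108 CPM, with 11 reads over all 6 libraries against 1405 and 1625 reads in the 2 tumours. The means differed 736-fold and the log2 difference was 9.42 (SE 1.90). The adjusted p in edgeR was 0.325 on clone sums and 0.000701 with the tumours as replicates, a fit whose p-values are too small. DESeq2 and limma voom did not call Sall1, and the fit of the 7 high clones alone did. Sall1 was not silent outside bulk_2838c3: 6 of the 9 low and intermediate libraries held more than 1 CPM, up to 20.4 CPM in clone bulk_2669c4. Tumour 1 of bulk_2838c3 held 15.8 CPM.

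Pax2 (chromosome 19, 44756045 to 44837871) was at 43.3 and 20.7 CPM, against 0 to 0.216 CPM with a median of 0.0287 CPM in the other high clones. The log2 difference was 9.03 (SE 2.02), and edgeR gave an adjusted p of 0.443 on clone sums and 0.00168 with the tumours as replicates. Pax2 too was called by the fit of the 7 high clones alone, but not by DESeq2 or limma voom. Cdh16, the kidney-specific cadherin, had the same order, at 55.4 and 26.2 CPM against 0 to 0.213 CPM, a log2 difference of 8.99 (SE 2.0). In both genes tumour 2 held more than tumour 3, and neither overlapped the other high clones. The low clone bulk_6419c1 reached similar levels, 44.2 CPM for Pax2 and 92.4 CPM for Cdh16, so the pair was not limited to bulk_2838c3. Pax8 and Lhx1, which work with Pax2 in the kidney, were at 0.386 CPM or less in both tumours. These 2 genes were looked up after the values of Pax2 had been seen.

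Tfap2a, which encodes the factor AP-2 alpha of neural crest and skin (chromosome 13, 40715302 to 40738376), was at 11.7 and 11.6 CPM. The other high clones ran from 0.0663 through a median of 0.393 CPM to 0.827 CPM, a log2 difference of 4.88 (SE 0.83). It was above all 15 other libraries, the highest of which held 7.58 CPM. It was called with the tumours as replicates (edgeR, adjusted p = 0.0188), by DESeq2 (adjusted p = 0.00186) and by limma voom (adjusted p = 0.0124). The homeobox genes Dlx1 and Dlx2, looked up after their values were seen, also stood above the other high clones, at 10.8 and 8.36 CPM against 0 to 1.15 CPM for Dlx1 and at 7.81 and 4.43 CPM against 0 to 0.451 CPM for Dlx2. The other homeobox gene of that later selection with a large difference, the intestinal factor Cdx2, went the opposite way, at 1.95 and 0.0909 CPM against 17.4 to 53.3 CPM.

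Tet2, Znf512b and Kdm6a were higher by smaller factors, with no overlap. Tet2, an enzyme that oxidises methylated cytosine (chromosome 3, 133463679 to 133545139), was at 117 and 76.5 CPM, against 32.9 to 52.0 CPM with a median of 42.1 CPM in the other high clones. The log2 difference was 1.15 (SE 0.20). Znf512b, a zinc finger gene (chromosome 2, 181582103 to 181592803), was at 91.0 and 56.9 CPM against 25.1 to 35.0 CPM, a log2 difference of 1.31 (SE 0.20). Both genes were above all 15 other libraries, and DESeq2 on clone sums called both. They were the 2 genes that edgeR called on clone sums once tumour 3 of bulk_2838c3 was left out, and Znf512b was also called with the tumours as replicates (adjusted p = 0.0415), where Tet2 was not (adjusted p = 0.0675). Kdm6a, the X-linked histone demethylase that is mutated in a share of pancreatic cancers, was at 95.0 and 63.8 CPM against 24.3 to 49.0 CPM. It was the 1 member of the 8 driver genes listed whose groups did not overlap, a share near the 8.12% of all genes that lay above. Xist and Y-linked transcripts, given below, also differed among these libraries. Whether the sex chromosomes of the cells had a part in the Kdm6a values was not tested.

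The remaining genes of the 12 were of varied function. Fign, a microtubule-severing enzyme, was at 5.22 and 6.11 CPM against 0.193 to 0.891 CPM, a log2 difference of 3.79 (SE 0.63). Hunk, a kinase of the AMPK family, was at 19.2 and 9.09 CPM against 0.265 to 1.84 CPM. Zfp385b, a zinc finger gene, was at 11.9 and 5.43 CPM against 0.258 to 0.640 CPM. These 3 genes had the 2 tumours clear of the other high clones by several-fold, though the low or intermediate libraries reached 12.7 CPM of Hunk. Slc6a19, the neutral amino acid transporter of kidney and intestine, was at 5.66 and 2.09 CPM against 0.0322 to 0.645 CPM. Igfbp1, a binding protein of insulin-like growth factors made by liver, was at 4.62 and 1.41 CPM against 0.0232 to 0.166 CPM. Cyp2c68, a cytochrome P450, had 38 and 58 reads in the 2 tumours and a single read in all 6 others, with 5 of them at 0. Tumour 1, which holds liver RNA, had 517 CPM of Igfbp1. Liver genes are described below, and whether liver RNA had a part in the Igfbp1 values of tumours 2 and 3 was not tested.

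**Figure D1:**
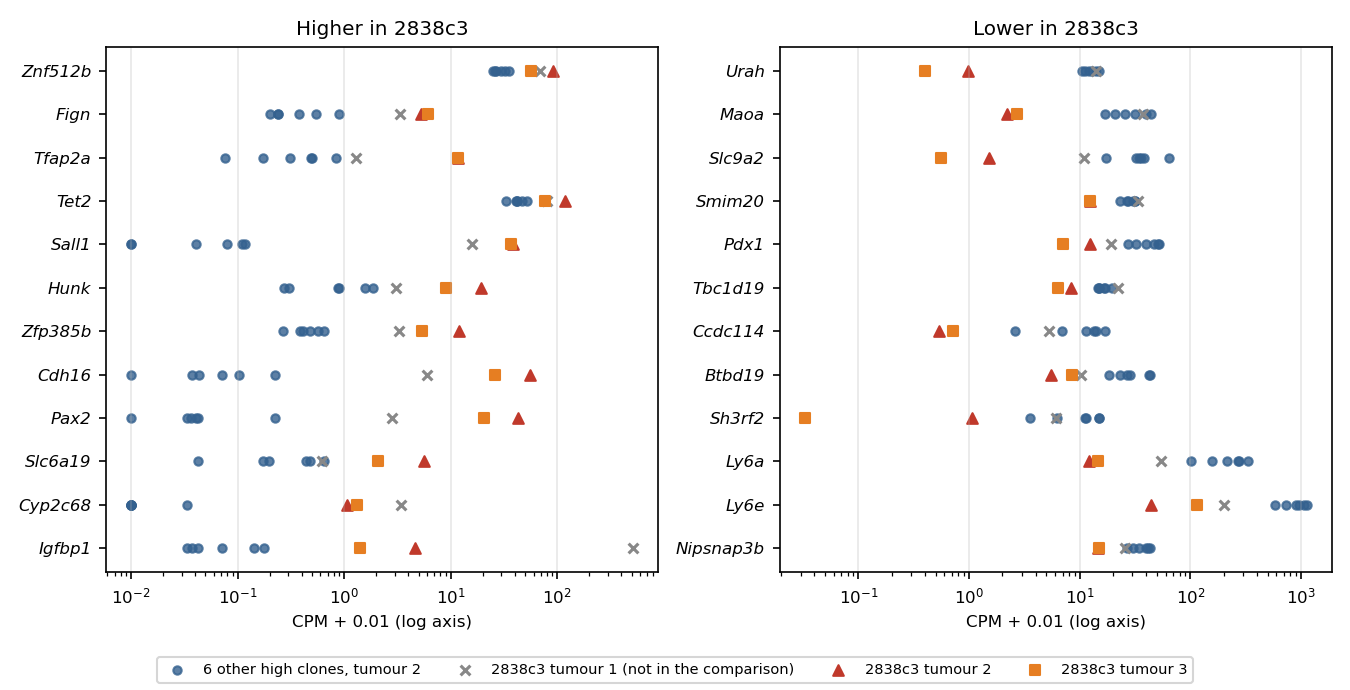
Level of the 12 genes named for higher and the 12 named for lower levels in bulk_2838c3, in CPM + 0.01 on a log axis, 1 point per library. Red triangles and orange squares are tumours 2 and 3 of bulk_2838c3, blue points the tumour 2 of the 6 other high clones, grey crosses tumour 1 of bulk_2838c3, which is not in the comparison. The triangles and squares lie outside the blue points in every line, as the naming rule requires.

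Pdx1, the factor that founds the pancreas, was among the 12 genes named for lower levels. Pdx1 (chromosome 5, 147269959 to 147275848) was at 12.4 and 7.09 CPM in tumours 2 and 3, against 27.3 CPM through a median of 43.4 CPM to 51.9 CPM in the other high clones and 30.3 to 80.7 CPM in low and intermediate libraries. The 2 tumours were thus below all 15 other libraries, with tumour 1 at 19.3 CPM. The log2 difference was -2.13 (SE 0.49), called by DESeq2 (adjusted p = 0.00202) and not by edgeR with the tumours as replicates (adjusted p = 0.0668).

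The other factors that specify foregut and pancreas were mixed. Of 11 listed factors tested, 5 had positive and 6 negative differences, 3 stood above (8.12% of all genes) and 2 below the other high clones (8.14%), and none was called. Foxa2, a forkhead factor of the foregut, was at 102 and 104 CPM against 34.9 to 71.2 CPM. Hnf4a, a nuclear receptor of liver and gut, was at 356 and 307 CPM against 134 to 269 CPM. Both were among the members above the range, while Pdx1 and Nr5a2 were below it. Sox17 was at 5.77 and 2.89 CPM, low in a range of 3.87 to 178 CPM that tumour 2 overlapped. The acinar factor Ptf1a had no reads in any of the 8 libraries.

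The transporter Slc9a2 and the enzymes Urah and Maoa were far lower in both tumours. Slc9a2, a sodium-proton exchanger of epithelia (chromosome 1, 40680574 to 40769273), was at 1.51 and 0.545 CPM against 17.3 CPM through a median of 35.1 CPM to 63.7 CPM, a log2 difference of -5.24 (SE 0.94). Urah, an enzyme of urate breakdown (chromosome 7, 140835018 to 140837966), was at 0.962 and 0.386 CPM against 10.5 to 15.0 CPM, a log2 difference of -4.29 (SE 0.74). Maoa, a monoamine oxidase on the X chromosome (16619698 to 16687818), was at 2.20 and 2.68 CPM against 17.1 to 44.5 CPM, a log2 difference of -3.61 (SE 0.64). All 3 were below all 15 other libraries, yet at 10.8, 14.1 and 37.6 CPM in tumour 1 of bulk_2838c3. With the tumours as replicates edgeR called each of them (adjusted p = 0.0188 for Slc9a2 and Maoa and 0.00768 for Urah). DESeq2 also called all 3, limma voom called none, and the fit of the 7 high clones alone called only Urah.

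The surface protein genes Ly6a and Ly6e, neighbours on chromosome 15, were the most abundant members of the lower group. Ly6a, also known as Sca-1 (74994877 to 74998031), was at 12.1 and 14.5 CPM against 101 to 335 CPM with a median of 241 CPM. Ly6e (74955051 to 74959905) was at 44.0 and 116 CPM against 579 to 1131 CPM with a median of 924 CPM. The lowest of the low and intermediate libraries held 106 CPM of Ly6e, so tumour 3 was not below them all. The log2 differences of Ly6a and Ly6e were -4.07 (SE 1.07) and -3.43 (SE 0.94). Both genes were called with the tumours as replicates (edgeR, adjusted p = 0.0188 and 0.0204). DESeq2 called both as well, while limma voom and the fit of the 7 high clones alone called neither. Ly6c1 of the same family was also below, at 7.89 and 7.09 CPM against 11.7 to 23.5 CPM, whereas Ly6c2, Ly6d and Ly6i overlapped. Ly6a and Ly6e are known to respond to interferon, and the interferon list is given below. The remaining genes of the lower group were Ccdc114, Sh3rf2, Btbd19 and Nipsnap3b, with log2 differences of -4.12, -4.41, -2.08 and -1.29, and the neighbours Smim20 and Tbc1d19 on chromosome 5. Sh3rf2 was at 1.04 and 0.0227 CPM against 3.55 to 15.02 CPM, so its log2 difference was -8.61 without tumour 2 and -3.31 without tumour 3. Btbd19 was lower than in the other high clones alone, since low and intermediate libraries held 8.35 to 14.8 CPM and overlapped the 5.55 and 8.59 CPM of bulk_2838c3.

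Smim20 and Tbc1d19 belong to a run of neighbouring genes on chromosome 5 with lower levels in both tumours. To see whether such runs occurred elsewhere, 11745 genes at 5 CPM or more were set against the median of the other high clones, each of those clones against the 5 others, in 262 windows of 10 Mb with at least 8 genes. The window of chromosome 5 from 50000001 to 60000000 was the only one where the median was past 0.5 in both tumours, in the same direction and outside the other clones. Its median was -0.88 in tumour 2 and -0.91 in tumour 3, against -0.05 to 0.14 in the 6 other high clones and 0.27 in tumour 1. Another window of chromosome 5, from 10000001 to 20000000 with 8 genes, had medians of -0.89 and -0.805 in tumours 2 and 3. It did not count because bulk_6556c4 was lower still, at -1.041. Among the other clones taken singly, 0 to 11 windows were past 0.5, so departures of that size in 1 library are not rare. The window from 50000001 to 60000000 was picked by its values and is given with no test.

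All 14 genes of that window had negative differences, from Dhx15, an RNA helicase that starts at 52150203, to the protocadherin Pcdh7, which starts at 57717967. Both tumours lay below all 6 other high libraries for 12 of them, the exceptions being Sod3 and Lgi2. Smim20, a small mitochondrial protein gene, was at 12.3 and 12.3 CPM against 23.05 to 31.8 CPM. Anapc4, a subunit of the anaphase-promoting complex, was at 43.5 and 43.7 CPM against 72.8 to 126 CPM, and Stim2, a calcium sensor of the endoplasmic reticulum, at 38.01 and 36.6 CPM against 61.1 to 85.3 CPM. Levels of these 3 were 0.435, 0.459 and 0.521 of the mean of the other high clones. Rbpj, the DNA-binding partner of Notch, was closer to the others, at 41.8 and 68.2 CPM against 69.4 to 101 CPM. Upstream, Slit2, Pacrgl and Gpr125 had log2 differences of 0.59, -0.12 and -0.25, and downstream Arap2 had -0.37, so the genes on either side were not below the other clones. In tumour 1 the genes of the window lay inside or above the range of the other high clones, with 33.4 CPM of Smim20 and 107 CPM of Anapc4, and Pcdh7 was far above it, at 60.5 CPM against 5.105 to 21.04 CPM.

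**Figure D2:**
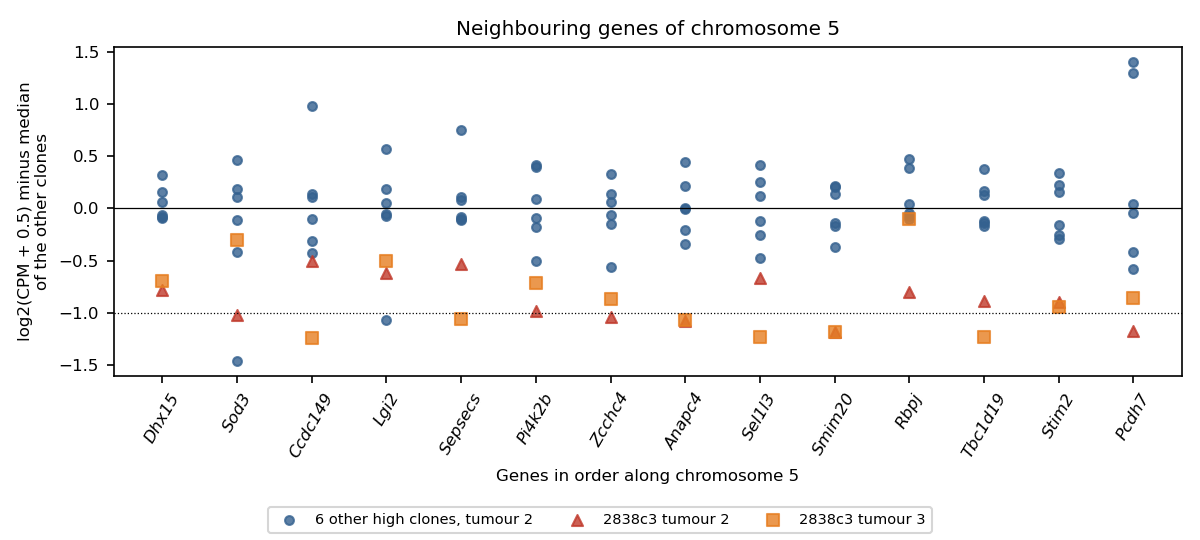
Level of the 14 genes of the chromosome 5 window in gene order, as log2(CPM + 0.5) minus the median of the other high clones. Red triangles and orange squares are tumours 2 and 3 of bulk_2838c3 and blue points the 6 other high clones, each against the 5 others. Most triangles and squares lie near the dotted line at -1, below the blue points.

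Whole chromosomes differed less. The median of chromosome 3 was 0.41 and 0.28 in tumours 2 and 3 against -0.12 to 0.22 in the other clones, and those of chromosomes 2, 13 and 19 were also above the others. Chromosome 11 was below, at -0.25 and -0.20 against -0.18 to 0.13. For the remaining 15 of 20 chromosomes the values overlapped.

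Cldn3, Epcam, Cldn7, Esrp1 and St14 were lower in both tumours of bulk_2838c3 than in any other high clone, while keratins overlapped. Of 20 ductal epithelial genes tested, 7 had positive and 13 negative differences, with a median of -0.80 against -0.06 over all genes tested. Both tumours were below the other high clones for 5 genes (8.14% of all genes) and above them for none. Cldn3, a tight junction protein, was at 0.632 and 0.273 CPM against 3.41 CPM through a median of 43.1 CPM to 129 CPM. Epcam, an adhesion protein of epithelia, was at 65.6 and 11.3 CPM against 107 to 790 CPM. St14, the protease matriptase, was at 7.31 and 2.55 CPM against 21.4 to 153 CPM, and the splicing factor Esrp1 at 2.01 and 0.318 CPM against 2.24 to 59.5 CPM. In each of these genes the other high clones themselves spanned a wide range, and the log2 differences of -6.85, -3.52, -3.93 and -4.14 had SEs of 3.04, 1.91, 1.85 and 2.20. Krt8, Krt18, Krt19 and Cdh1 overlapped, with Cdh1 at 1086 and 686 CPM inside 527 to 1144 CPM. The libraries thus still held ductal keratins, with Krt19 at 1213 and 680 CPM.

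Mesenchymal genes were mixed. Vim, the intermediate filament of mesenchymal cells, was at 3443 and 3226 CPM against 1244 to 2867 CPM, above all 6 other high clones. Twist1, a factor that drives loss of epithelial features, was at 5.94 and 6.02 CPM against 9.18 to 71.1 CPM, below all of them. Zeb1, Zeb2, Snai1 and Snai2 overlapped. Of the 10 genes tested, 4 had positive and 6 negative differences.

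Agr2 and Muc6 were lower in both tumours than in the other high clones. Agr2, which folds mucins in secretory cells, was at 0.357 and 0.0454 CPM against 1.33 to 139 CPM, and Muc6, a gastric gland mucin, at 0.467 and 1.0 CPM against 1.04 to 47.4 CPM. These were the 2 of 12 tested members below all other high clones, or 16.67%, where 8.14% of all genes were. The share rests on those 2 genes, and 10 of the 12 had negative differences (median -0.96). Gkn1 and Muc5ac were 84.0 and 58.0 CPM in tumour 2 and 5.23 and 4.07 CPM in tumour 3, so the 2 tumours of the clone were far apart on them. Pigr, which carries antibodies across epithelia, was at 1.13 and 0.273 CPM against 12.5 to 364 CPM.

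**Figure D3:**
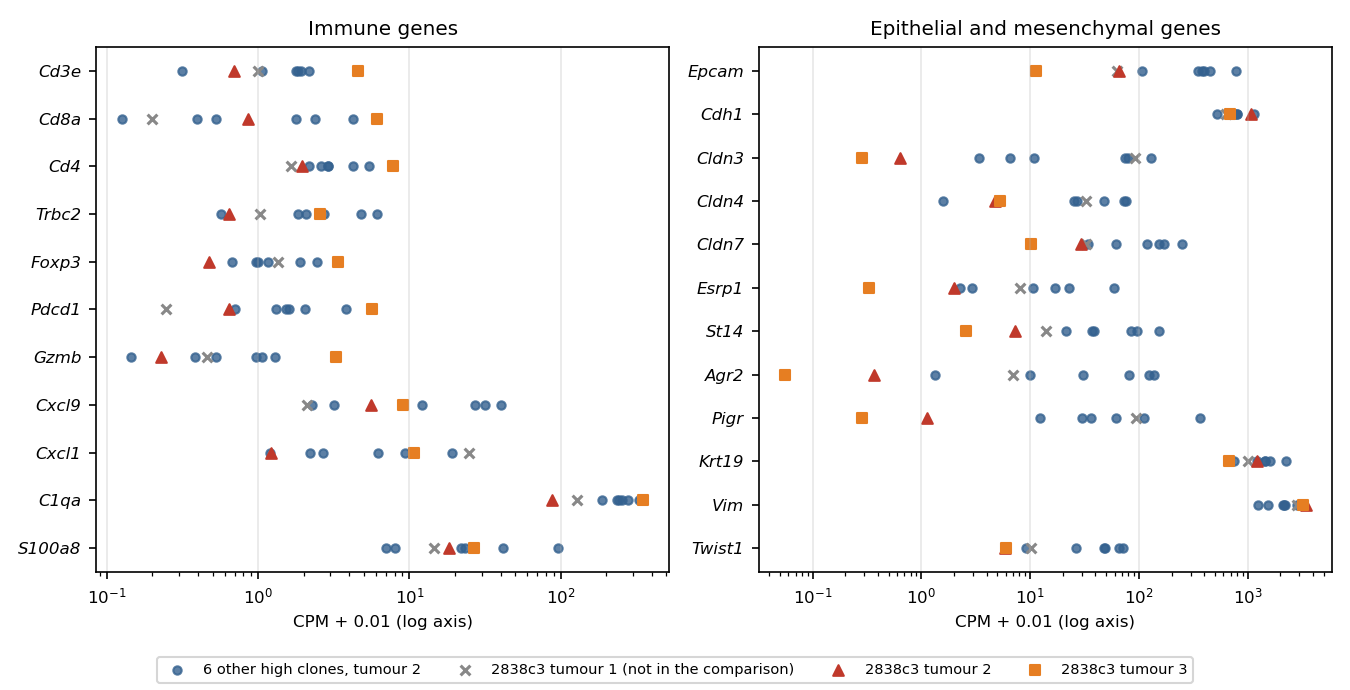
Level of immune genes (left) and of epithelial and mesenchymal genes (right) in CPM + 0.01 on a log axis, 1 point per library, with the same symbols for bulk_2838c3 tumours 1, 2 and 3 and the other high clones. Cldn3, St14, Agr2 and Pigr of both tumours lie to the left of the other clones, while most immune genes place tumour 2 low and tumour 3 high, as with Cd8a at 0.852 and 6.07 CPM.

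The summed level of T cell genes placed the 2 tumours of bulk_2838c3 at opposite ends of the high clones, though not every gene did. In bulk tumours, fewer cells of a type and less RNA per cell cannot be told apart. Of 20 T cell genes, 17 had positive differences (median 0.61) and none had both tumours outside the other clones. All 20 were higher in tumour 3 than in tumour 2, against 48.5% of all genes tested. Tumour 3 was above all 6 other high libraries for 16 of them (16.7% of all genes tested), and tumour 2 was below all 6 for 10 (20.8% of all genes). Cd3e, of the T cell receptor complex, was at 0.687 and 4.55 CPM against 0.302 to 2.15 CPM, and Cd4 at 1.95 and 7.77 CPM against 2.16 to 5.44 CPM. The summed level of the list was 14.1 CPM in tumour 2 and 70.6 CPM in tumour 3, against 15.1 to 42.2 CPM. In the low and intermediate libraries the sum ran from 9.75 CPM through a median of 18.4 CPM to 95.9 CPM. Tumour 2 was thus below that median, and tumour 3 was inside that range.

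Cytotoxic, regulatory T cell, macrophage and MHC class II genes had the same order. All 12 cytotoxic genes were higher in tumour 3 than in tumour 2, against 48.5% of all genes tested. Gzmb, the main granule protease, was at 0.220 and 3.25 CPM against 0.135 to 1.29 CPM. Foxp3, the factor of regulatory T cells, was at 0.467 and 3.36 CPM against 0.663 to 2.43 CPM. Of 15 macrophage and monocyte genes, 13 were below all 6 other clones in tumour 2 (20.8% of all genes tested). In tumour 3, 10 were above all 6 (16.7% of all genes tested). C1qa, a complement subunit made by macrophages, was at 88.0 and 351 CPM against 187 to 330 CPM, and the list summed to 1355 and 3941 CPM against 2582 to 4129 CPM. All 8 MHC class II genes were below the other clones in tumour 2 (20.8% of all genes), and 4 were above them in tumour 3 (16.7%). Macrophage and T cell genes were thus both higher in tumour 3 than in tumour 2.

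Of 8 NK cell genes tested, 7 had positive differences (median 1.52), and Klra4 and Klre1, 2 lectin-like receptors, had both tumours above the other clones (8.12% of all genes tested). Tumour 3 was above all 6 other libraries for 7 of the 8 (16.7% of all genes). Klra4 was at 21.8 and 32.5 CPM against 4.42 to 17.4 CPM, and made up most of the list's summed 24.4 and 49.7 CPM. The defining NK gene Ncr1, too low to be tested, was at 0 and 0.364 CPM against 0 to 0.0697 CPM, and Klrb1c at 0.275 and 1.34 CPM against 0.209 to 0.480 CPM, so tumour 3 alone was above the range for both. Ighm, the heavy chain of IgM, was at 32.8 and 55.7 CPM against 4.67 to 28.04 CPM, while the B cell genes Ms4a1 and Cd79a overlapped.

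Granulocyte genes and the chemokines that draw them mostly overlapped the other high clones. Of 12 granulocyte genes, 4 had positive and 8 negative differences. Ltf, the granule protein lactoferrin, was the only one with both tumours below, at 3.68 and 2.73 CPM against 5.70 to 101.7 CPM, and S100a8 was at 18.2 and 26.8 CPM inside 6.995 to 96.6 CPM. Of 11 attracting and growth factors, 7 had positive differences, and Ppbp was the only one with both tumours above, at 5.42 and 6.04 CPM against 0.862 to 3.65 CPM. Csf3, the granulocyte growth factor, was low at 0.220 and 0.545 CPM, overlapping 0.298 to 6.54 CPM. The T cell-attracting chemokines Cxcl9 and Cxcl10 overlapped as well, with Cxcl9 at 5.58 and 9.11 CPM inside 2.25 to 40.5 CPM.

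Antigen presentation by MHC class I and the interferon response had mostly negative differences in spite of the T cell values of tumour 3. All 12 MHC class I genes had negative differences (median -0.54) but every one overlapped the other clones. H2-K1, the classical class I gene, was at 396 and 584 CPM against 339 to 2337 CPM. Of 16 interferon response genes, 14 had negative differences (median -0.91), and Irf1 alone had both tumours below, at 55.2 and 61.4 CPM against 62.2 to 96.8 CPM. Over all genes tested, 45.6% had positive differences.

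Complement and fibroblast genes lay below the other high clones in part. Of 15 complement genes 5 were below the other clones, namely C2, C4b, C1s, C1ra and the inhibitor Serping1, where 8.14% of all genes tested were. C4b was at 81.5 and 85.4 CPM against 120 to 279 CPM and Serping1 at 48.3 and 46.6 CPM against 55.6 to 117 CPM. Of 17 fibroblast and matrix genes, 16 had negative differences (median -0.67) and 6 had both tumours below (8.14% of all genes): Dcn, Lum, Postn, Sparc, Acta2 and Tagln. Lum, a collagen-binding proteoglycan, was at 13.7 and 12.6 CPM against 28.1 to 52.4 CPM, a log2 difference of -1.65 (SE 0.58), and Acta2, smooth muscle actin, at 79.8 and 95.0 CPM against 127 to 220 CPM. Col1a1, at 3004 and 3828 CPM, lay inside 2297 to 8697 CPM. None was called.

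Of 20 cell cycle genes, 16 had positive differences (median 0.28), and 4 of them, Ccnb1, Ccnb2, Ccna2 and Bub1, had both tumours above the other clones (8.12% of all genes). Ccnb1, the mitotic cyclin B1, was at 70.8 and 77.0 CPM against 20.7 to 53.7 CPM, a log2 difference of 1.32 (SE 0.61). Mki67 overlapped at 233 and 207 CPM inside 117 to 236 CPM. Wnt feedback genes ran the other way, with 10 of 11 negative (median -1.07) and all overlapping. All 10 MYC and ribosome biogenesis genes were negative (median -0.30), of which Npm1 and Fbl had both tumours below (8.14% of all genes). Lists of hypoxia, p53 targets and MAPK feedback had medians of 0.02, -0.04 and 0.58 with few or no members outside the other clones.

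**Figure D4:**
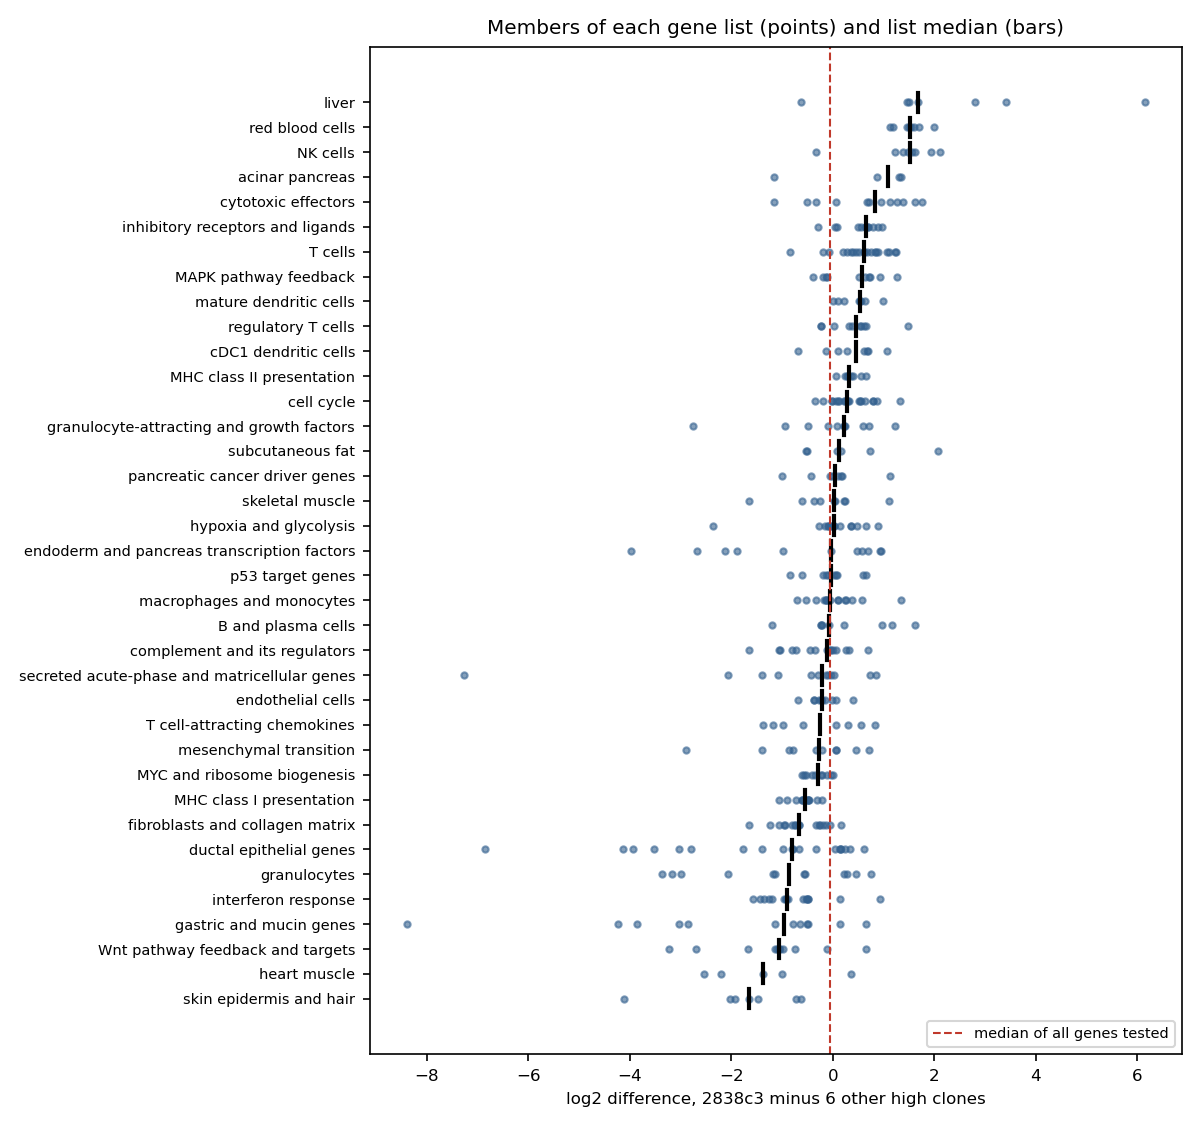
Log2 difference of bulk_2838c3 from the 6 other high clones for each tested member of the gene lists (points), with the median of each list (bars) and of all genes tested (dashed line at -0.06). Lists of skin, heart and Wnt genes have the lowest medians and those of liver, red blood cell and NK genes the highest, and no member was called.

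Genes typical of other tissues differed in level between the tumours. Liver genes were higher in bulk_2838c3, with 6 of 7 tested members positive (median 1.68) and Alb, Apoa1 and Ttr above the other clones (8.12% of all genes). Alb was at 10.7 and 4.59 CPM against 0 to 0.232 CPM, but the liver enzymes Cps1 and Serpina3k were at 0.220 CPM or less in both tumours, and the low clone bulk_6419c1 held 123 CPM of Alb. Red blood cell genes were high in tumour 2 alone, where all 8 were above the other clones, as were 3580 of all 18847 genes tested. Hbb-bs was at 1465 CPM there, against 138 CPM in tumour 3 and 39.4 to 701 CPM in the others. All 7 skin genes tested had negative differences (median -1.65), with Krt14 at 1.59 and 1.07 CPM against 2.92 to 52.0 CPM. Of 5 heart genes tested, 4 had negative differences and all overlapped the other clones. The 8 listed heart genes summed to 25.1 and 110.8 CPM against 18 to 473.5 CPM, nearly all of it Tnnt2, at 23.4 and 108.2 CPM, while the heart myosin Myh6 was at 0.0825 CPM or less. Reads from such tissues and reads from the tumour cells themselves cannot be told apart in bulk RNA. Whether these tissues contributed to the values of other genes was not tested.

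Transcripts of the Y chromosome were missing from both tumours. Ddx3y, Uty and Kdm5d had 0 reads in tumours 2 and 3, which allows up to 0.0835 and 0.0685 CPM at 3 reads, a limit that covers counting error only. The other high clones bulk_6421c2, bulk_6555c3 and bulk_7160c2 held 15.9, 15.5 and 47.3 CPM of Ddx3y, and the remaining 3 held at most 0.0464 CPM. Tumour 1, which carries the same clone label, held 40.2 CPM. Xist, the RNA of the inactive X chromosome, was at 2212 and 1470 CPM against 0.430 to 867 CPM. These genes were looked up after other values had been seen, and the sources used here do not give the sex of the cells or the hosts.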

How the data were processed

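The deposited table holds whole-number read counts per gene for 37 libraries, with no normalization, judged from the values. Per the submitters' processing notes, STAR and featureCounts were used with the genome build mm10. Versions, annotation and strand setting are not stated there, so genes that overlap on opposite strands, such as Tfap2a with Gm26688, or have near-identical copies, such as Ly6 and Klra genes, are uncertain. Labels gave clone, phenotype and number, and 3 libraries with no phenotype were left out. Nothing in the labels says that tumours of 1 clone came from separate animals.

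Members and gene lists were chosen with earlier results of these data known. Counts of each clone were summed over libraries numbered 2 or higher, except that numbered 2 of bulk_2669c4, which gave 17 libraries of 15 clones (8 libraries of 7 high, 7 of 6 low and 2 of 2 intermediate clones). edgeR 4.0.16 (R 4.3.3; TMM scaling, default expression filter by group, two-sided quasi-likelihood test, Benjamini-Hochberg threshold of 0.05) compared bulk_2838c3 with the other high clones. The spread was pooled over clones, and bulk_2838c3 was assumed to vary like them. SE is the absolute log2 difference over the square root of F and is approximate. DESeq2 1.42.0 and limma 3.58.1 (voom) were alternatives. The script was tested on simulated data.

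Named genes are Clu, Cd8a and Cxcl1, plus 12 per direction with the smallest p, at least 1 CPM in the higher group, and both tumours outside the other high clones, leaving out predicted genes. Members of lists are named as examples, so several were chosen after their values were seen. Coordinates are from GENCODE M21 (GRCm38), which holds 37693 of the 39017 identifiers.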

Additional observations from a re-analysis of the deposited data

Results flagged for a closer look

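Among the named genes, each was checked for a library far from the rest of the 6 other high clones, which chance gives in about 1 of 20 groups. Pax2 in bulk_6555c3 was at 0.2161 CPM, while the next highest was at 0.03224 CPM, and Cyp2c68 in bulk_6620c1 was at 0.02322 CPM with the other 5 at 0. Both levels rest on few reads, 12 over the 6 libraries for Pax2 and 1 for Cyp2c68, and both are far below those of bulk_2838c3. Outside the comparison, the liver gene Alb was at 6884 CPM in tumour 1 of bulk_2838c3, against 10.69 CPM at most in the 8 libraries compared.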

How the results depend on the processing

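With 0 genes called on clone sums, RLE scaling and no low-count filter also gave 0, and the smallest adjusted p were 0.125 and 0.111. DESeq2 called 34 genes, the fit of the 7 high clones alone 8, limma voom with a correlation of 0.648 within clones 3, and tumours as replicates 37. Leaving out 1 replicate in turn gave 0 to 2 calls, with 2 without tumour 3 of bulk_2838c3 (Znf512b and Tet2) and 1 without bulk_6556c4 (Nqo1). For tumours as replicates, leaving out 1 replicate gave 7 to 164 calls, a set of fits added after seeing the data. They gave 7 and 11 without tumours 2 and 3 of bulk_2838c3, and 65, 11, 24, 164, 10 and 31 without bulk_6421c2, bulk_6499c4, bulk_6555c3, bulk_6556c4, bulk_6620c1 and bulk_7160c2. The number of calls thus changed with the library left out, and the cause was not tested. Of 378 log2 differences of 27 named genes under 14 alternatives, 331 kept direction and side of the threshold, 39 passed it and 8 changed sign. All 8 were of the genes named throughout: Clu was 0.01 with voom and ranged from -0.11 to 0.03 over the fits with 1 replicate left out, with 0.02 without tumour 3 of bulk_2838c3 or without bulk_6556c4. Cd8a ranged from -0.87 (without tumour 3) to 1.97 (without tumour 2). Cxcl1 ranged from -2.50 to 0.67, with 0.57 without bulk_6556c4 and 0.03 without bulk_6620c1. No paired analysis was possible because the libraries compared share only the number 2. Low depth in genes under 1 CPM limits their values to a few reads.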

Other observations

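Several further genes with both tumours of bulk_2838c3 outside the other high clones were picked after their values had been seen, and are given with no test. Notch2, a Notch receptor, was at 372 and 341 CPM against 136 to 186 CPM, and Nrarp, a feedback target of Notch, at 69.4 and 139 CPM against 21.6 to 45.8 CPM. The lipopolysaccharide-binding protein gene Lbp was at 354 and 318 CPM against 42.6 to 126 CPM, Itih2, a serum protease inhibitor, at 87.6 and 63.0 CPM against 1.997 to 19.6 CPM, and Agt, the angiotensin precursor, at 4.92 and 6.18 CPM against 0.161 to 0.737 CPM. Lbp, Itih2 and Agt encode liver-secreted proteins in the body. Tumour 1, which holds liver RNA, had 138 CPM of Lbp, less than tumours 2 and 3. It had 280 CPM of Itih2 and 65.8 CPM of Agt, more than either of them. Whether liver RNA had a part in these values of tumours 2 and 3 was not tested.

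The kidney cadherin Cdh6 was at 108 and 104 CPM against 26.6 to 66.5 CPM, and the desmosome gene Dsp at 807 and 420 CPM against 192 to 250 CPM. On the lower side, the water channel Aqp5 was at 1.40 and 0.886 CPM against 37.8 to 255 CPM, the secreted hormone Stc2 at 3.08 and 2.39 CPM against 24.0 to 94.1 CPM, and the tight junction gene Cldn6 at 27.2 and 18.7 CPM against 102 to 206 CPM. Sox21 had 0 reads in both tumours and 1.05 to 9.15 CPM in the other high clones.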
